A study of Mus musculus with 6 samples.

Results

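The 10 enzymes described here make or degrade ceramide, galactosylceramide and sulfatide, the sphingolipids for which myelin is known. They were chosen by gene symbol for that role, with earlier results of these data known. All 10 were found among the 39017 genes of the count table and among the 16569 genes with enough counts to be tested. Serine palmitoyltransferase (Sptlc1 and Sptlc2) starts the pathway, Cers2 attaches a very long fatty acid, and Degs1 introduces the double bond that completes ceramide. Fa2h hydroxylates the fatty acid, Ugt8a adds galactose to give galactosylceramide, and Gal3st1 adds a sulfate to give sulfatide. Sgms1 turns ceramide into sphingomyelin instead, and Arsa and Galc strip the sulfate and the galactose off again in the lysosome. Galactosylceramide and sulfatide are abundant in the myelin made by oligodendrocytes, and inherited loss of GALC or ARSA causes Krabbe disease or metachromatic leukodystrophy.

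RNA bound to tagged ribosomes of C57BL/6 mouse corpus callosum, a white matter tract, was sequenced in 6 libraries. All mice carried RiboTag, which puts an HA tag on the ribosomal protein RPL22 after Cre recombination, together with Olig1-Cre, which drives recombination in the oligodendrocyte lineage. Control libraries (replicates 24, 26 and 27) came from mice labelled vehicle, and cuprizone libraries (replicates 30, 31 and 32) from mice given 0.2% cuprizone, a copper chelator that is toxic to oligodendrocytes, in the diet. The treatment protocol names females of 8 to 10 weeks, 6 or 9 weeks of cuprizone and 3 weeks of recovery on control diet, and does not say which of these a cuprizone library had. Nothing in the labels says that the libraries of a group came from separate animals, so p-values measure the spread between these libraries, which may be technical. A fall in such RNA may reflect fewer cells of a type or less RNA per cell, which cannot be told apart.

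Libraries held 18549360 to 22381307 counts. Of the genes tested, 945 were lower and 310 higher in cuprizone at a Benjamini-Hochberg adjusted p of 0.05 with edgeR's quasi-likelihood test. The 8 myelin protein genes used for comparison below, such as Mbp, Mog and Mag, summed to 60539 to 82184 CPM (counts scaled to the same library size, TMM-normalised) in control and 7964 to 14853 CPM in cuprizone, and all 8 fell. Markers of other cells were captured too. Summed CPM was 1317 to 2808 in control and 2093 to 5368 in cuprizone for 14 microglia and macrophage genes, 18480 to 21075 and 13051 to 25538 for 8 astrocyte genes, and 1483 to 2455 and 1787 to 3351 for 8 neuron genes. The 5 endothelial genes summed to 14.3 to 19.9 and 18.6 to 52.3 CPM, and no marker gene of these 4 lists was at 0 in all libraries. Within each list the log2 fold changes went both ways, and none passed the test with edgeR. They were positive and negative for 12 and 2 microglia and macrophage, 5 and 3 astrocyte, 7 and 1 neuron, and 4 and 1 endothelial genes. Most of the astrocyte sum was Gfap (mean 5995 CPM in control, 9483 in cuprizone) and Slc1a2 (9992 and 6798). Cuprizone replicate 32 had the highest microglia, neuron and endothelial sums, the lowest astrocyte sum, and the lowest level of its group for 9 of the 10 enzymes.

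Fa2h, Ugt8a, Cers2 and Gal3st1 fell several-fold, Degs1 and Sptlc2 fell less, and Sptlc1, Sgms1, Galc and Arsa did not pass the test. With edgeR 6 of the 10 enzymes were lower in cuprizone and 0 higher, where 5.7% of all genes tested were lower and 1.87% higher, 7.57% in either direction. The unadjusted p was under 0.05 for 8 of them, all lower, where 12.8% of all genes tested were lower and 10.5% higher. DESeq2 and limma-voom each called 6 lower and 0 higher. Of 16569 genes tested they called 1400 and 972 lower and 862 and 293 higher. The median log2 fold change of the 10 was -0.82, against 0.02 over all genes tested. The libraries of the groups did not overlap for 8 of the enzymes, all lower in cuprizone, against 17.6% of genes tested that were lower without overlap. Because the 10 were chosen with earlier results of these data known, these contrasts with all genes are descriptions only. The steepest fall was that of Fa2h, to 10.2% of its control mean, and the smallest difference that of Arsa, at 93.0%. In the plot of levels by library, Cers2, Fa2h, Ugt8a and Gal3st1 separate by several-fold while Sgms1 and Arsa lie side by side.

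**Figure D1:**
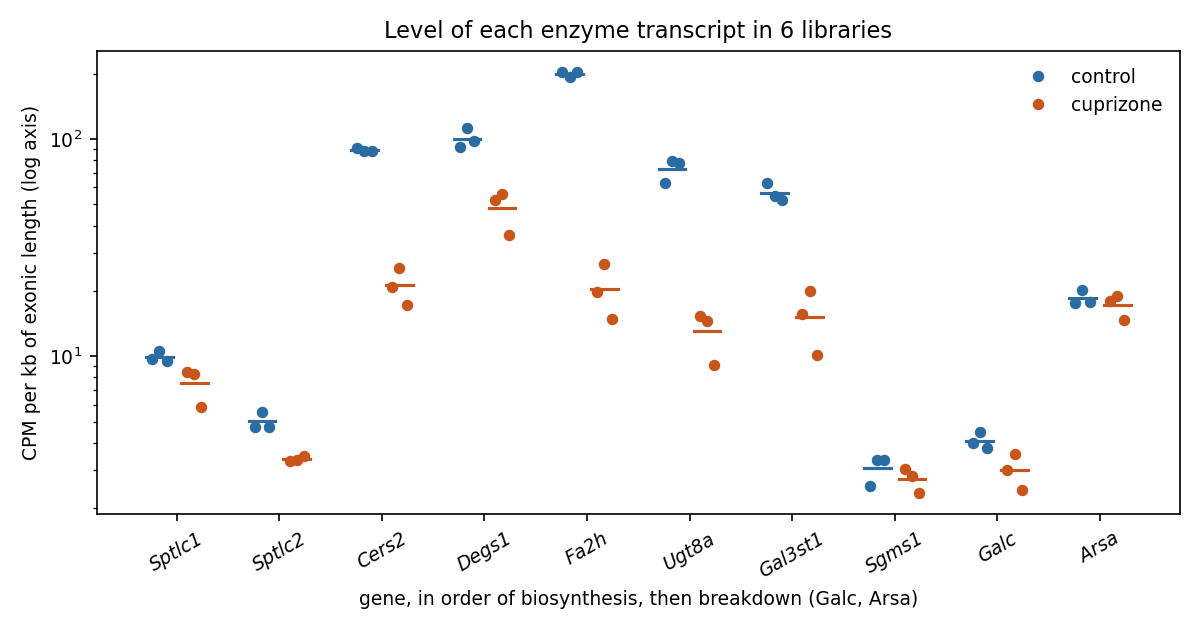
Level of each of the 10 enzyme transcripts in CPM per kb of exonic length (log axis), with 1 point per library, the line at the group mean, blue for 3 control and orange for 3 cuprizone libraries. Fa2h is the highest in control, at 199.9 CPM per kb, and falls to 20.4 in cuprizone, while Sgms1 and Arsa overlap between the groups.

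Both subunits of serine palmitoyltransferase, the rate-limiting first step, were measured at a low level. Sptlc1 (ENSMUSG00000021468, chromosome 13, 53332748 to 53377397 in GRCm38) was at 34.5, 37.8 and 33.9 CPM in the control libraries and 29.98, 29.5 and 20.9 CPM in cuprizone. The groups did not overlap, and replicate 32 was the lowest. The log2 fold change of -0.40 ± 0.16 (SE) did not pass the test (adjusted p = 0.188, edgeR). Sptlc2 (ENSMUSG00000021036, chromosome 12, 87305058 to 87388355) was at 38.5, 45.2 and 38.5 CPM in the control libraries and 26.8, 26.9 and 28.2 CPM in cuprizone. It was the only one of the 10 enzymes for which replicate 32 was the highest of its group. Sptlc2 fell by 0.58 on the log2 scale (SE 0.11, adjusted p = 0.0235, edgeR). That call was lost when control replicate 24, 26 or 27 or cuprizone replicate 30 or 31 was left out, with adjusted p of 0.0718, 0.0931, 0.0745, 0.0948 and 0.0643 in that order.

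Cers2, the ceramide synthase that makes very long chain ceramides, fell in every cuprizone library. Cers2 (ENSMUSG00000015714, chromosome 3, 95314791 to 95323599) stood at 336, 324 and 326 CPM in the control libraries and 76.8, 93.7 and 63.4 CPM in cuprizone. The control libraries lay within a narrow range, 328 ± 6.56 CPM (SD, n = 3), and each cuprizone library held less than the lowest of them by far. The log2 fold change was -2.07 ± 0.17 (adjusted p = 0.00154, edgeR), or 4.21-fold. Of its 3676 exonic bases 75 are shared with Setdb1 and 144 with the antisense gene 6330562C20Rik on the opposite strand, and whether reads were counted by strand is not known here, so reads of such pairs cannot be told apart.

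Degs1, the dihydroceramide desaturase, fell less than Cers2. Degs1 (ENSMUSG00000038633, chromosome 1, 182275772 to 182282804) was at 238, 289.9 and 253 CPM in the control libraries and 136, 145 and 93.9 CPM in cuprizone, with no overlap. The log2 fold change was -1.06 ± 0.19 (adjusted p = 0.0183, edgeR), so that 48.0% of the control mean was left. Leaving out control replicate 24, 26 or 27 ended that call, with adjusted p of 0.0549, 0.0766 and 0.0692, as did leaving out cuprizone replicate 30 (0.0628).

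Fa2h, which puts the hydroxyl group on the fatty acids of myelin galactolipids, had the largest fall of the 10. Fa2h (ENSMUSG00000033579, chromosome 8, 111345135 to 111393824) was at 613, 579 and 611 CPM in the control libraries and 59.4, 80.4 and 44.7 CPM in cuprizone. The lowest control library held more than the highest cuprizone library by several-fold. The log2 fold change was -3.29 ± 0.24 (adjusted p = 0.00103, edgeR), a 9.78-fold fall, and only 0.296% of all genes tested had a lower value. Its part of the summed CPM of the 10 enzymes went from 32.1% to 11.3%.

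Ugt8a and Gal3st1 catalyse consecutive steps, from ceramide to galactosylceramide and from there to sulfatide, and both fell. Ugt8a (ENSMUSG00000032854, chromosome 3, 125865271 to 125938619) was at 286, 359 and 352 CPM in the control libraries and 69.7, 66.3 and 41.6 CPM in cuprizone. Gal3st1 (ENSMUSG00000049721, chromosome 11, 3983636 to 3999326) was at 128, 111 and 107 CPM in the control libraries and 31.97, 40.7 and 20.8 CPM in cuprizone. For both, every cuprizone library lay below every control library. The log2 fold change of Ugt8a was -2.49 ± 0.23 (adjusted p = 0.0019, edgeR) and that of Gal3st1 -1.89 ± 0.24 (adjusted p = 0.00523, edgeR), which left 17.8% and 27.01% of the control means. Fa2h, Ugt8a, Cers2 and Gal3st1 passed the test in each of 14 alternative fits, with an adjusted p of at most 0.0117, 0.0125, 0.0124 and 0.0322.

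RefSeq start windows in GRCm38.p6 were at hand for 9 of the 10 enzymes, 15 windows in all, and Fa2h was not among them. The 250 bases before each start were searched on both strands for letters known as motifs of myelin, lysosome and sterol regulators. They were CTGGCAC and CTGGTAC for MYRF, ACAAAG and ACAATG for SOX factors, TCACGTG for the CLEAR element bound by TFEB, and TCACNCCAC for SREBP. The windows of Ugt8a and Gal3st1 are shown because these 2 consecutive steps fell together, with any match in capitals. The Ugt8a window (chr3:125938653-125938902, minus strand) held none of the 6 motifs, and that of Gal3st1 (chr11:3983386-3983635, plus strand) held ACAATG, which 10.7% of 32851 windows of that length hold.
Ugt8a: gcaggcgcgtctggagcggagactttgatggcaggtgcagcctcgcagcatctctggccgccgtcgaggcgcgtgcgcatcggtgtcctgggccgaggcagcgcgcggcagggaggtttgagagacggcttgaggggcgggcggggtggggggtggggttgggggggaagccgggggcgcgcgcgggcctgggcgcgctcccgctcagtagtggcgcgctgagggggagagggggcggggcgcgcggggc
Gal3st1: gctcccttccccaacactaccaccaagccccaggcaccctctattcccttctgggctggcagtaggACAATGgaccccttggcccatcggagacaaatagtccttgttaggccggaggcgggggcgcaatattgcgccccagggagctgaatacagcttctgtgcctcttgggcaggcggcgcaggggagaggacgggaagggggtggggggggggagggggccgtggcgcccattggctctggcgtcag

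The CLEAR letters occurred before the RefSeq starts of Degs1 and Arsa, and in 3.13% of all windows. The stretches around them are shown because Arsa is one of the 2 lysosomal enzymes of the set and Degs1 is not lysosomal. They lie at chr1:182282223-182282249 and chr15:89477425-89477451, both on the minus strand. RefSeq starts can lie inside the GENCODE gene spans given above, as do the Degs1 stretch and all windows of Cers2 and Sgms1. The only other matches were ACAAAG (16.5% of all windows) before Sptlc1 and in 1 of 4 windows of Sgms1, CTGGTAC (1.83%) in another window of Sgms1, and ACAATG in a second, overlapping window of Gal3st1. No window held more than 1 match. A match describes the letters of a window and not a bound site.
Degs1: ggagcctcaaTCACGTGgtccagtcag
Arsa: caactcagtgTCACGTGttgtctgctc

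Sgms1, the Golgi enzyme that competes for ceramide to make sphingomyelin, did not pass the test. Sgms1 (ENSMUSG00000040451, chromosome 19, 32122727 to 32389714) was at 26.6, 35.1 and 35.1 CPM in the control libraries and 31.9, 29.7 and 24.7 CPM in cuprizone, and the groups overlapped. Its log2 fold change was -0.17, with a 95% interval from -0.53 to 0.20 (adjusted p = 0.578, edgeR). That interval holds no fall as large as that of Degs1.

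Neither lysosomal enzyme passed the test. Galc (ENSMUSG00000021003, chromosome 12, 98202294 to 98259459), which removes galactose from galactosylceramide, was at 59.2, 66.7 and 56.1 CPM in the control libraries and 44.4, 53.1 and 36.1 CPM in cuprizone. All 3 cuprizone libraries lay below the controls, with a log2 fold change of -0.45 ± 0.16 (adjusted p = 0.153, edgeR; 95% interval from -0.82 to -0.07). Arsa (ENSMUSG00000022620, chromosome 15, 89472476 to 89477425), which removes the sulfate of sulfatide, was at 64.7, 74.1 and 65.5 CPM in the control libraries and 66.3, 69.5 and 54.3 CPM in cuprizone. The Arsa groups overlapped, with a log2 fold change of -0.10 and a 95% interval from -0.41 to 0.20 (adjusted p = 0.682, edgeR). On the opposite strand Arsa shares 690 of 3680 exonic bases with C230037L18Rik and Galc 400 of 14879 with Gm47439. Both enzymes are also made by microglia and macrophages, whose summed markers are given above, and the part of those cells in the Galc and Arsa levels was not tested.

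The order of the enzymes by level per exonic length changed. In control Fa2h led at 199.9 ± 6.37 CPM per kb (SD, n = 3), followed by Degs1 at 100.4 ± 10.4, Cers2 at 89.3 ± 1.79, Ugt8a at 73.2 ± 8.82 and Gal3st1 at 56.5 ± 5.37. Arsa stood at 18.5 ± 1.42, Sptlc1 at 9.95 ± 0.592, Sptlc2 at 5.02 ± 0.477, Galc at 4.08 ± 0.367 and Sgms1 at 3.06 ± 0.461 CPM per kb. No 2 neighbours in that order overlapped between the 3 control libraries. In cuprizone Degs1 led at 48.2 ± 10.5 CPM per kb, and Cers2 at 21.2 ± 4.14, Fa2h at 20.4 ± 5.98, Arsa at 17.2 ± 2.19, Gal3st1 at 15.3 ± 4.89 and Ugt8a at 13.1 ± 3.39 overlapped each with the next. Sptlc1 (7.54 ± 1.44) and Sptlc2 (3.37 ± 0.0948) stood apart from their upper neighbours, and Galc (2.99 ± 0.571) and Sgms1 (2.73 ± 0.349) overlapped with theirs. The exonic length of Galc joins all annotated transcripts, and levels per length depend on that choice.

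Ratios within a library do not depend on scaling between libraries, and 5 pairs of genes were compared in this way. Ugt8a had 4.83, 5.38 and 6.27 counts for each Galc count in control and 1.57, 1.25 and 1.15 in cuprizone. Gal3st1 had 1.97, 1.5 and 1.63 counts for each Arsa count in control and 0.482, 0.585 and 0.383 in cuprizone. Both synthetic enzymes lost counts relative to the enzyme that undoes their step. Ugt8a to Sgms1, which use ceramide for galactosylceramide and for sphingomyelin, went from 10.7, 10.2 and 10.03 to 2.18, 2.23 and 1.68. Ugt8a to Ugcg, which adds glucose to ceramide in place of galactose, went from 17.1, 9.72 and 13.7 to 1.81, 2.86 and 1.45. Fa2h to Cers2 went from 1.83, 1.79 and 1.88 to 0.773, 0.858 and 0.705. These ratios are of counts, not per length, and give no order of level between the genes of a pair. In log2 the mean differences were -2.06, -1.83, -2.36, -2.75 and -1.24 in the order given. The groups overlapped for none of the 5 ratios. The exact 2-sided permutation p was 0.1 for each (adjusted p = 0.1 over the 5), the smallest that 3 against 3 libraries allow. Each difference follows from the fold changes of its 2 genes in these same libraries, so the ratios are no separate support for them. How often other gene pairs separate in this way was not measured.

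Among Ugt8a, Ugcg, Sgms1 and Sgms2, which each add a headgroup to ceramide, Ugt8a held 88.9% ± 1.37 of the counts per exonic length in control and 58.2% ± 6.00 in cuprizone (SD, n = 3). Ugcg held 6.03% ± 1.66 and 26.2% ± 6.05, Sgms1 3.71% ± 0.0967 and 12.4% ± 1.13, and Sgms2 1.33% ± 0.455 and 3.22% ± 1.01. The groups did not overlap for any of these shares. With Samd8, which makes ceramide phosphoethanolamine, counted too, the share of Ugt8a was 79.4% ± 1.39 in control and 42.7% ± 4.496 in cuprizone and that of Samd8 10.7% ± 0.755 and 26.5% ± 1.42, an addition made after the values were seen. Samd8 itself did not pass the test (log2 fold change -0.30, adjusted p = 0.297, edgeR). Shares move together because they sum to the whole, and Ugcg itself was at 26.4 ± 10.1 CPM in the control libraries and 30.1 ± 7.80 CPM in cuprizone (adjusted p = 0.758, edgeR). Among ceramide synthases other than Cers1, the share of Cers2 went from 87.5% ± 1.62 to 64.9% ± 2.87 and that of Cers5 from 9.07% ± 1.02 to 22.7% ± 0.687, although Cers5 had 32.8 ± 3.64 CPM in the control libraries and 26.2 ± 4.33 CPM in cuprizone. Cers1 is left out of these shares because 1349 of its 3171 exonic bases belong to Gdf1 as well, a choice made after its values were seen. With Cers1 counted in, the share of Cers2 was 62.9% ± 1.85 in control and 26.7% ± 3.45 in cuprizone. That of Cers1 was 28.1% ± 0.934 and 59.0% ± 3.73, the largest in cuprizone. Cers1 itself was at 127 ± 5.19 CPM in the control libraries and 147 ± 1.73 CPM in cuprizone (adjusted p = 0.258, edgeR).

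**Figure D2:**
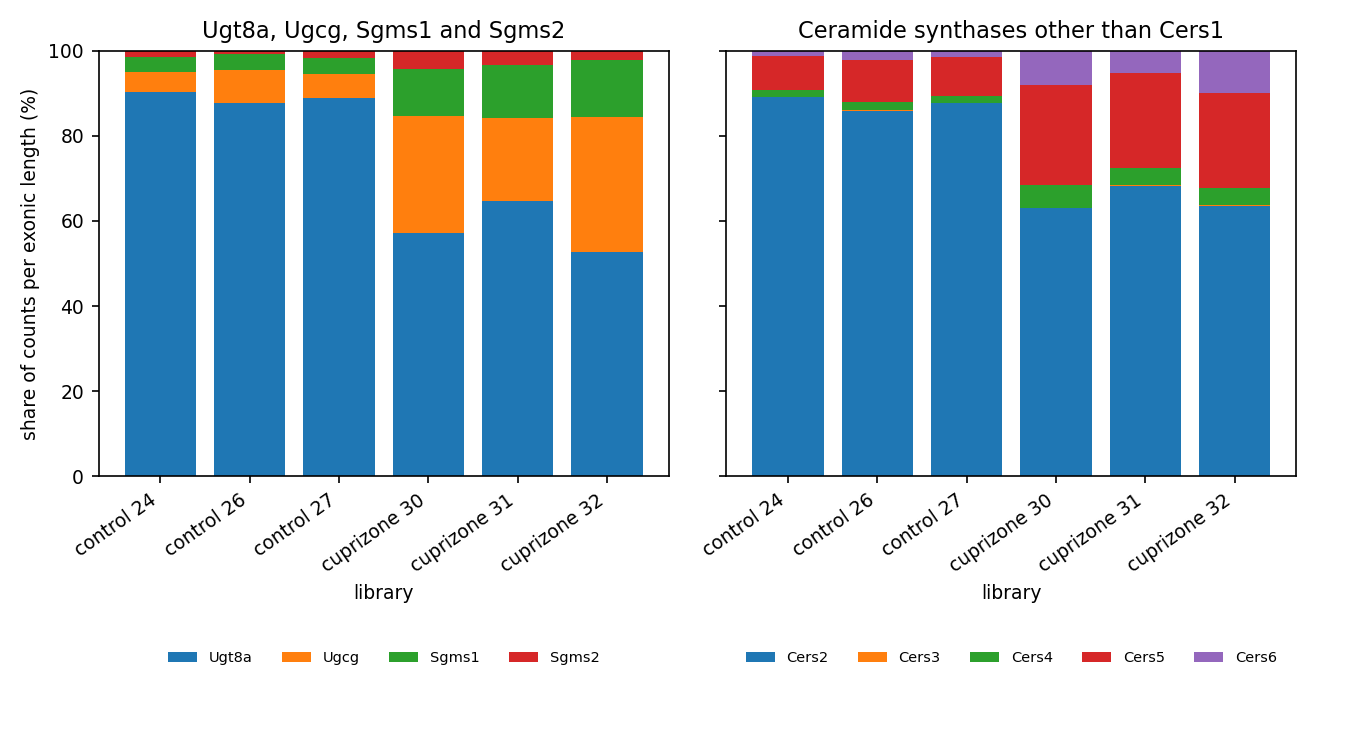
Shares of counts per exonic length (%), stacked for each of the 6 libraries, among Ugt8a, Ugcg, Sgms1 and Sgms2, which add a headgroup to ceramide (left), and among ceramide synthases other than Cers1 (right). Ugt8a goes from 88.9% to 58.2% and Cers2 from 87.5% to 64.9% of the group means, with no overlap between the groups. With Cers1 counted in, Cers2 goes from 62.9% to 26.7% and Cers1 from 28.1% to 59.0%.

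To see whether the enzymes changed as much as myelin proteins did, each library was scaled by its summed counts of the 8 myelin protein genes and the edgeR fit was repeated over all genes. On this scale the median of all genes tested was 2.92, and 98.5% of them were above 0 at an adjusted p of 0.05, with 0.145% below and 1.38% not called. Of the enzymes 8 were above, 0 below and 2, Fa2h and Ugt8a, not called. Fa2h had a log2 fold change of -0.46 relative to the myelin sum, with a 95% interval from -1.21 to 0.29 (adjusted p = 0.23, edgeR). Ugt8a had 0.37, from -0.37 to 1.11 (adjusted p = 0.328, edgeR). The intervals of both include a change equal to that of the myelin sum, which does not show that they changed alike. With the geometric mean of the 8 genes in place of the sum Ugt8a was above as well (0.77, adjusted p = 0.0361).

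Gal3st1 and Cers2 fell less than the myelin sum, by a narrow margin. Relative to it Gal3st1 had 0.94 ± 0.39 (adjusted p = 0.0153, edgeR) and Cers2 0.78 ± 0.38 (adjusted p = 0.0414, edgeR). The 8 myelin protein genes themselves ran from -1.92 for Cnp to -4.74 for Mal under TMM scaling. Relative to their sum 1 of them, Cnp (0.91), was above, 3 were below and 4 were not called. The Gal3st1 call was lost without control replicate 24 or 27 or cuprizone replicate 30 (adjusted p = 0.0664, 0.0979 and 0.101). The Cers2 call was lost with any control library left out (adjusted p = 0.15, 0.0584 and 0.147 without 24, 26 and 27), and also without cuprizone library 30 (0.154) or 32 (0.0634). The other 6 enzymes lay further above the sum, from 1.79 for Degs1 to 2.77 for Arsa, and remained above it in each of 9 alternative fits.

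**Figure D3:**
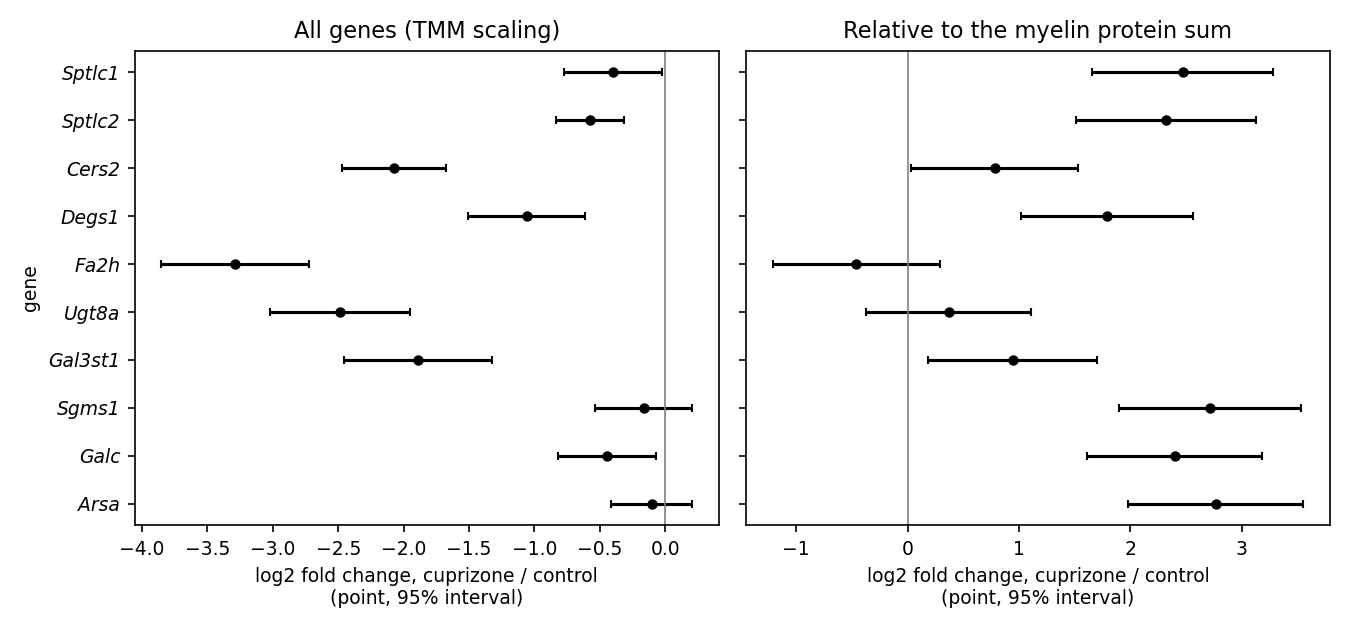
Log2 fold change of each enzyme, cuprizone against control, with its 95% interval, under TMM scaling over all genes (left) and relative to the summed myelin protein genes (right). On the left Fa2h, Ugt8a, Cers2 and Gal3st1 lie at -1.89 or lower (Degs1, Sptlc2, Sptlc1, Sgms1, Galc and Arsa change sign when scaled by Olig1, Olig2 and Sox10), and on the right only the intervals of Fa2h and Ugt8a include 0.

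Lineage transcription factors gave a scale of another kind. Olig1, Olig2 and Sox10 had log2 fold changes of -1.12, -0.46 and -1.25 under TMM scaling, of which that of Olig2 did not pass the test (adjusted p = 0.253, edgeR). Olig1 and Sox10 were the only called genes of the 6 on the lineage list, on which Nkx2-2 had -0.69 (adjusted p = 0.0983), Pdgfra -0.32 (adjusted p = 0.587) and Cspg4 -0.02 (adjusted p = 0.970). Scaling each library by the summed counts of Olig1, Olig2 and Sox10 was chosen after the data were seen, and it moved the median of all genes tested to 1.11, with 1.64% of genes lower and 83% higher. Of the enzymes 4 were lower on this scale, Fa2h (-2.23), Ugt8a (-1.40), Cers2 (-1.003) and Gal3st1 (-0.82). Arsa (0.98), Sgms1 (0.92), Sptlc1 (0.69) and Galc (0.62) were higher. The signs of Degs1 and Sptlc2, which fell under TMM scaling, flipped to 0.02 and 0.51 with adjusted p of 0.955 and 0.0973 (edgeR).

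Of the wider sphingolipid pathway, 53 genes besides the 10 enzymes were tested, of which 3 fell and 1 rose with edgeR. These shares are close to the 5.7% and 1.87% of all genes, so these genes were not called more often than genes in general. Their median log2 fold change was -0.01, against 0.02 over all genes tested, and 13 had an unadjusted p under 0.05. Of these 9 were lower and 4 higher, where 12.8% of all genes tested were lower and 10.5% higher at that threshold. Gltp, a glycolipid transfer protein, fell from 464 ± 60.4 to 188 ± 37.1 CPM (SD, n = 3), a log2 fold change of -1.30 ± 0.19 (adjusted p = 0.00849, edgeR). Papss1, which makes the activated sulfate that Gal3st1 uses, went from 233, 222 and 197 CPM to 130, 150 and 119 CPM (-0.71 ± 0.14, adjusted p = 0.0243, edgeR). Asah2, a neutral ceramidase, went from 14.1, 18.0 and 19.2 CPM to 8.48, 8.21 and 4.76 CPM (-1.26 ± 0.25, adjusted p = 0.025, edgeR). Smpd3, a neutral sphingomyelinase, was the riser, from 46.0, 53.9 and 57.4 CPM to 92.8, 83.6 and 119 CPM (0.91 ± 0.16, adjusted p = 0.0183, edgeR). None of these 4, picked by the test on the same libraries, overlapped between the groups. Of all genes tested 17.6% were lower and 12.6% higher without overlap.

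Fewer of these 4 passed with control replicate 24, 26 or 27 or cuprizone replicate 30 left out. All 4 passed without cuprizone replicate 31 or 32. The adjusted p of Papss1 was 0.0983, 0.102, 0.0688 and 0.102 without control replicate 24, 26 or 27 or cuprizone replicate 30, and that of Smpd3 0.070, 0.0695, 0.0635 and 0.058 in the same order. Asah2 was at 0.0901, 0.0969 and 0.0582 without control replicate 26 or 27 or cuprizone replicate 30, while Gltp passed each of these fits. On the lineage scale Smpd3 passed, Gltp (-0.24, adjusted p = 0.453) and Asah2 (-0.18, adjusted p = 0.598) did not, and Papss1 turned to 0.37 (adjusted p = 0.223).

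The wider pathway was also counted by list, with 5.7% of all genes tested lower and 1.87% higher at the same threshold. In the ceramide synthesis list 4 of 16 tested genes fell, all of them among the 10 enzymes (Fa2h, Cers2, Degs1 and Sptlc2), and 0 rose with edgeR, DESeq2 or limma-voom, with 1 at an unadjusted p under 0.05 in that direction. Without control replicate 24, 26 or 27 or cuprizone replicate 30, 2 of them fell, and without cuprizone replicate 32 Ormdl3, which restrains serine palmitoyltransferase, rose (0.50, adjusted p = 0.021). Sptssa, a small subunit of serine palmitoyltransferase, had a log2 fold change of -0.46 (adjusted p = 0.0949, edgeR). In the list of galactolipid synthesis and its donors 3 of 9 fell, Ugt8a, Gal3st1 and Papss1. Slc35a2, which carries UDP-galactose into the Golgi, went from 63.5 ± 1.47 to 43.2 ± 8.10 CPM without passing (adjusted p = 0.0758, edgeR), and passed with DESeq2 (adjusted p = 0.0222) and without cuprizone replicate 31 (adjusted p = 0.0453).

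The remaining lists hold sphingomyelin and glucosylceramide branches, breakdown genes that include Galc and Arsa, and transfer proteins. In the sphingomyelin list 1 of 7 genes rose, Smpd3. With edgeR, DESeq2 and limma-voom 0 of 10 genes of glucosylceramide and ganglioside synthesis passed, with 3 at an unadjusted p under 0.05, and the median was 0.14. In the breakdown list 1 of 17 fell, Asah2, which is not lysosomal, a share close to the 5.7% of all genes, and the median was 0.20. Psap, the precursor of the saposins that help Galc and Arsa reach their lipids, was at 2072 ± 100.8 CPM in the control libraries and 2373 ± 63.9 CPM in cuprizone (adjusted p = 0.54, edgeR). The microglia and macrophage sum was highest in control replicate 24 and cuprizone replicate 32 of their groups, and its part in the breakdown list was not tested. Among transfer proteins 1 of 4 tested fell, Gltp.

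**Figure D4:**
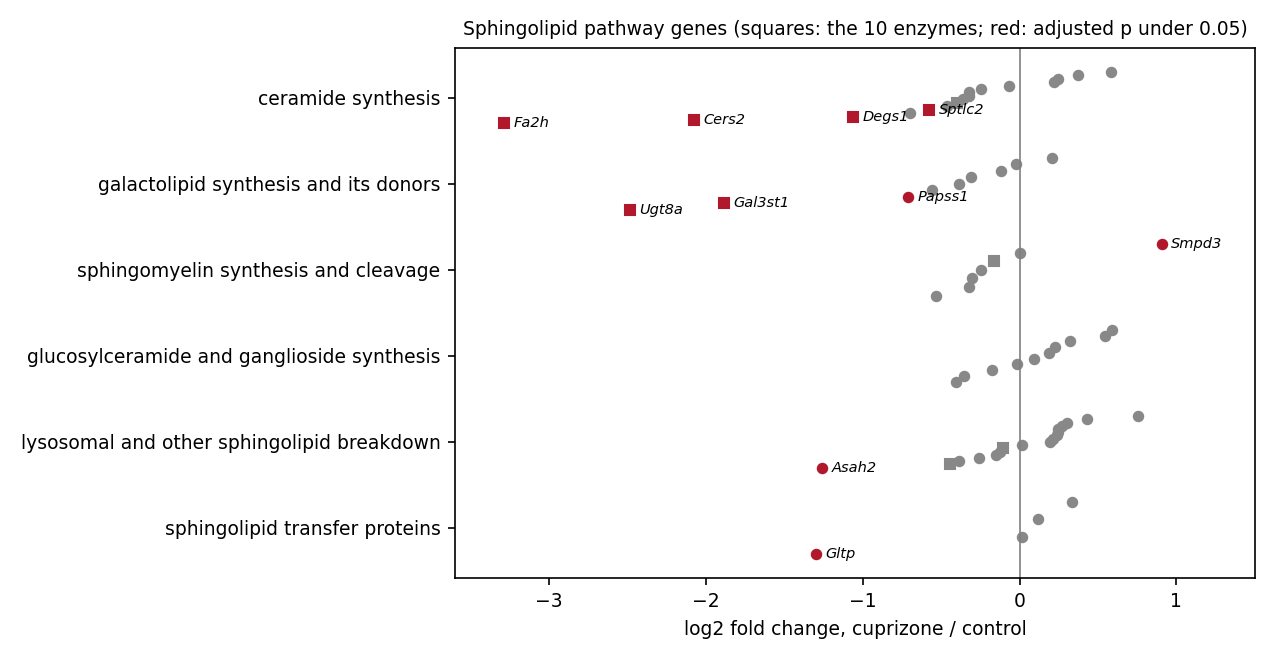
Log2 fold change, cuprizone against control under TMM scaling, of each tested gene of 6 sphingolipid lists (squares are the 10 enzymes, circles other genes, red those past an adjusted p of 0.05). Genes past the threshold lie mostly in the 2 synthesis lists at the top, from -3.29 for Fa2h to -0.58 for Sptlc2. Of those in these lists, all but Papss1 are among the 10 enzymes, which were chosen with earlier results known. Gltp, Asah2 and Smpd3 lie in other lists, and Smpd3 at 0.91 is the only gene past the threshold to the right of 0.

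The genes closest in pattern were sought among 10433 others with at least 10 CPM, by the root mean square difference of mean-centred log2 CPM over the 6 libraries. For Fa2h they included Ninj2 (0.10) and Cdc42ep2 (0.14). For Ugt8a they were Abca2 (0.13), Micall1 (0.15) and Pik3c2b (0.15), and for Gal3st1 Tmem98 (0.09), Cmtm5 (0.10) and Fah (0.10). Cers2 lay nearest to Pigh (0.08), Slco3a1 (0.08) and Ttll7 (0.10). For Galc the nearest were Trappc10 (0.03), the lysosomal membrane gene Lamp1 (0.04) and Itgb1 (0.05). Degs1 lay nearest to Ankib1 (0.04), Reep3 (0.04) and Daam1 (0.05), Sptlc1 to Fut8 (0.03), Tgfb3 (0.04) and Ccdc47 (0.04), and Sptlc2 to Rusc2 (0.04), Zfp282 (0.05) and Chmp7 (0.06). The nearest to Sgms1 were Fam208a (0.04), Ndfip2 (0.04) and Ppm1k (0.05), and to Arsa Ints1 (0.03), Asb7 (0.03) and Pcmtd1 (0.03).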

How the data were processed

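The authors deposited raw read counts per Ensembl mouse gene for 6 libraries. Per the submitters' processing notes bcl2fastq 2.17 and build mm10 were used; the aligner, counter, annotation release and strand setting remain not given in the sources used here. Symbols, positions and exonic lengths came from GENCODE M21 (GRCm38, the same assembly as mm10), which named 37607 of 39017 identifiers.

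Counts were tested in R 4.3.3 with edgeR 4.0.16 (filterByExpr, minimum count 10; TMM; robust quasi-likelihood test, 2-sided, Benjamini-Hochberg over all genes). The procedure was tested on simulated counts. SE was taken as log2 fold change over the root of F. No pair of replicates matched within sampling noise (chi-square per degree of freedom 24.4 to 100.98). Depth was similar between libraries, so genes at a few CPM carry more counting error.

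Also tried were upper-quartile and RLE scaling, TMM without myelin and abundant genes, other filters, DESeq2 1.42.0, limma-voom (limma 3.58.1), scaling by lineage genes and leaving out each library. The members and lists were chosen with earlier results of these data known. Named genes are the 10 enzymes, pathway genes past the threshold, examples with at least 20 CPM and the 3 genes nearest in pattern to each enzyme. Some genes that this rule names are not reported here.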

Additional observations from a re-analysis of the deposited data

How the results depend on the processing

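No paired analysis was possible because the groups share no replicate number. The count of lower enzymes was 6 under RLE and upper-quartile scaling, TMM without abundant genes, both other filters, DESeq2 and limma-voom, and 4 to 6 with a library left out. Among the 53 other pathway genes the count of lower ones ran from 1 to 4 and that of higher ones from 0 to 2 with a library left out; the cause was not tested. With libraries scaled by summed Olig1, Olig2 and Sox10 (chosen after seeing the data) 4 enzymes were lower and 4 higher. Of the 53 other pathway genes 0 were lower and 45 higher, where 1.64% of all genes tested were lower and 83% higher. By construction that scale is set by 3 genes, of which Olig1 and Sox10 fell under TMM scaling and Olig2 did not pass. On it the log2 fold changes turned to 0.69 for Sptlc1, 0.51 for Sptlc2, 0.017 for Degs1, 0.92 for Sgms1, 0.62 for Galc, 0.98 for Arsa and 0.37 for Papss1. With a library left out 6 to 8 enzymes were above the myelin sum, and 9 with the geometric mean. In the main fit 98.5% of all genes tested were above that sum. Over all genes, 65 to 464 were higher and 474 to 963 lower with a library left out, and DESeq2 called 862 and 1400.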
